A study of Mus musculus with 9 samples.

Results

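The genes described here are the platelet-derived growth factor (PDGF) ligands Pdgfa, Pdgfb and Pdgfc, the PDGF receptors Pdgfra and Pdgfrb, the fibroblast surface markers Thy1, Fap and Lrrc15, and the mesenchymal transcription factors Twist1 and Prrx1. They were chosen as a list of 10 gene symbols. Of these, 9 had a transcript cluster (the array's unit of measurement, standing for the transcripts of a gene) under the annotation used, among 22206 transcript clusters tested. Pdgfra was not analysed here. RNA came from submandibular glands, a major salivary gland, taken from female mice of the C57BL6/J strain at an age of 12 weeks, and each group had 3 arrays, which the labels call biological replicates. One group had mock surgery and healed for 3 days, another had partial resection of the gland and healed for 3 days, and the last had partial resection and healed for 14 days. A day 14 mock group was not analysed here, so at day 14 resection and time since surgery cannot be told apart.

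PDGFs are secreted dimers that bind receptor tyrosine kinases on mesenchymal cells. PDGF-A, PDGF-B and PDGF-C chains come largely from epithelium, endothelium, platelets and macrophages, whereas PDGFR-beta is carried by fibroblasts and by the pericytes that wrap small vessels. In glands, fibroblasts form the stroma around acini and ducts, and after injury activated fibroblasts proliferate and lay down collagen.

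Values are deposited log2 values, and a difference is given as log2 difference ± standard error (SE). They are not calibrated fold changes, since 337 transcript clusters exceeded 16 on at least 1 array, with a highest value of 19.93. The negative control rows of the arrays give a reference for low values, with a median of 4.41 to 4.52 on mock arrays, 4.65 to 4.77 on day 3 resected arrays and 4.51 to 4.61 on day 14 resected arrays. Twist1 lay below that median on 9 of 9 arrays and Pdgfb on all arrays except mock replicate 2, so neither was clearly above background. The 95th percentile of the negative control rows was higher, 8.21 to 8.52 over the arrays. A value above the median can thus still lie within their range. Pdgfrb and Lrrc15 read under that percentile on all arrays, and Thy1, Prrx1 and Pdgfc on all mock and day 14 arrays. Thy1, Prrx1 and Pdgfc were under it on day 3 resected replicate 1 as well, and Prrx1 also on replicate 2. A gene is said to have risen or fallen where the adjusted p from limma (Benjamini-Hochberg over all transcript clusters) was under 0.05. The day 3 resected arrays stood apart from the other 6 along the main axis of variation, which held 42.9% of the variance. Without day 3 resected replicate 3 the transcript clusters that passed on day 3 numbered 850 in place of 1393.

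The promoters of Lrrc15 and Prrx1 are shown because these members moved together, and that of Pdgfd, a PDGF ligand of the wider pathway, because it moved the opposite way. Of the 10 listed genes, 6 had an entry in the RefSeq promoter table used (GRCm38.p6). Each line gives the 250 bases before the annotated start, 5′ to 3′ on the strand of the gene. Capitals mark matches of 5 motifs searched on both strands: the E-box CANNTG, bound by Twist1 and its relatives, the AP-1 site TGANTCA, the GC box GGGCGG, the homeodomain core TAATTA and the TATA box TATAAA.
Lrrc15, chr16:30283255-30283504, minus strand: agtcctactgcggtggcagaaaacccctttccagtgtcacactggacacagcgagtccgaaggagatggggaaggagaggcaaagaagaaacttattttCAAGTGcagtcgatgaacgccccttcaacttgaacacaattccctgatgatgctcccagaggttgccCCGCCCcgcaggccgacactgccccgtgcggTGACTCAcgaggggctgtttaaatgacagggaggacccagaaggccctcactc
Prrx1, chr1:163313651-163313900, minus strand: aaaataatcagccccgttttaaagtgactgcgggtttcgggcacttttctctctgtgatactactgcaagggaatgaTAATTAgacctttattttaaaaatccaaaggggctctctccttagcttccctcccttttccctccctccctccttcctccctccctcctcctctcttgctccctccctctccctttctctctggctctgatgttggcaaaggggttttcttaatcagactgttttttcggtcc
Pdgfd, chr9:6168236-6168485, plus strand: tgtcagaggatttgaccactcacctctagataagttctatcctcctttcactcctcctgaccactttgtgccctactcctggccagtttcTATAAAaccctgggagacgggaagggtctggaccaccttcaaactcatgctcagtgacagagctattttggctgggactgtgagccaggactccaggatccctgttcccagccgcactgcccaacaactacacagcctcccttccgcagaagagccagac
In the Lrrc15 window an E-box (CAAGTG) began 151 bases before the start, a GC box 84 bases before it and an AP-1 site (TGACTCA) 53 bases before it. The Prrx1 window held a homeodomain core 173 bases before the start, and the Pdgfd window a TATA box 160 bases before it. Among all 32851 windows of the same length in the table, 66.2% held an E-box, 32.7% a GC box, 12.4% a TATA box, 6.75% an AP-1 site and 4.84% a homeodomain core. The 3 windows shared 0 of the 5 motifs, and a match describes letters in a window, not binding. GC content was 56.4% for Lrrc15, 47.6% for Prrx1 and 53.6% for Pdgfd.

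The first comparison sets glands 3 days after partial resection beside glands 3 days after mock surgery. On day 3 the surface markers Thy1 and Lrrc15 and the transcription factor Prrx1 rose, whereas the ligands, Pdgfrb, Fap and Twist1 did not pass the test. Of the 9 measured genes, 3 passed and 3 of these rose, beside 6.27% of all transcript clusters that passed, 4.92% as higher and 1.36% as lower. At an unadjusted p under 0.05 there were 6 of the 9 in limma, beside 18.6% of all transcript clusters. The groups did not overlap for 7 of the 9, beside 23.0% of all transcript clusters (11.2% with the resected group higher). After subtraction of each array's negative control median, 862 clusters were higher and 1352 lower in place of 1092 and 301, and the same 3 listed genes passed, at 2.39 for Thy1, 1.50 for Lrrc15 and 1.88 for Prrx1. The median difference of the 9 was 0.64, and that of all transcript clusters was -0.06.

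**Figure D1:**
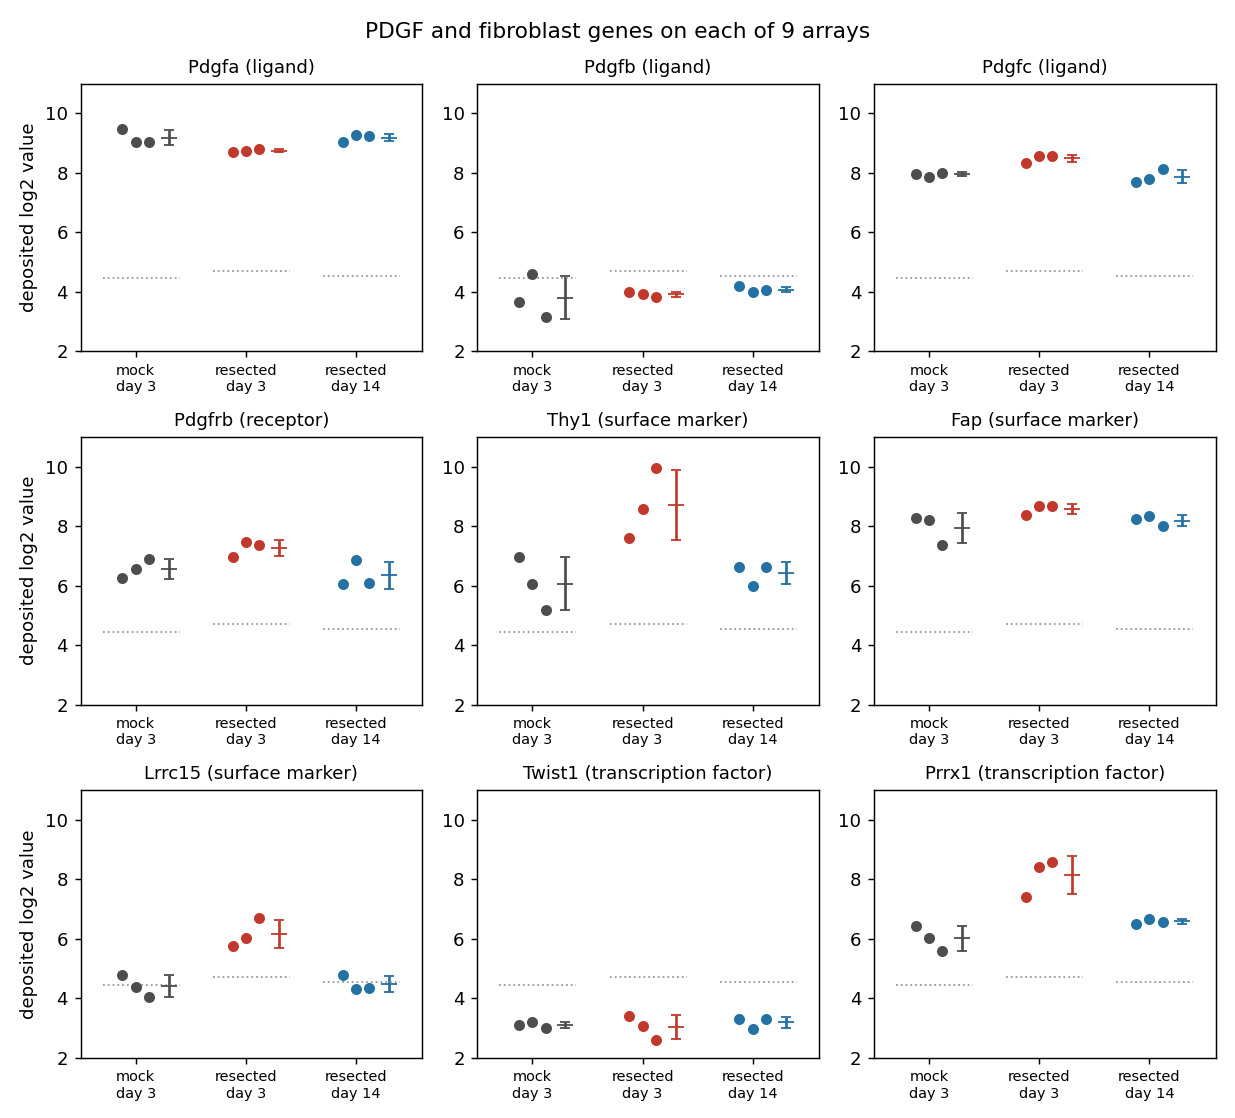
Deposited log2 values of the 9 measured genes on each array (points), with the group mean and SD (n = 3) beside them; the dotted line is the mean of the negative control medians of the group's arrays. Thy1, Lrrc15 and Prrx1 are higher on every day 3 resected array than on any mock or day 14 array. So are Pdgfc, Pdgfrb and Fap, by smaller gaps, while Twist1 lies below the dotted line throughout.

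Among the ligands, Pdgfa encodes PDGF-A, a chain made by many epithelia. Its log2 values were 9.47, 9.02 and 9.04 on mock arrays, 8.71, 8.73 and 8.79 on day 3 resected arrays and 9.04, 9.27 and 9.24 on day 14 resected arrays. All 3 day 3 resected arrays lay below all others, by a small margin. The day 3 difference from mock was -0.43 ± 0.21 (95% interval -0.87 to 0.02, adjusted p = 0.290 by limma), and it was -0.28 without mock replicate 1, the highest mock array.

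Pdgfc encodes PDGF-C, which is secreted with an inhibitory domain that must be cleaved off before it binds a receptor. Its values were 7.98, 7.87 and 8.01 on mock arrays, 8.35, 8.55 and 8.55 on day 3 resected arrays and 7.70, 7.81 and 8.11 on day 14 resected arrays. The day 3 resected arrays were the highest 3 of the 9. The difference from mock was 0.53 ± 0.20 (95% interval 0.10 to 0.97) and did not pass (adjusted p = 0.163 by limma).

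Pdgfb encodes PDGF-B, the chain by which endothelium recruits pericytes. Its values were 3.67, 4.60 and 3.16 on mock arrays, 4.00, 3.93 and 3.84 on day 3 resected arrays and 4.19, 4.00 and 4.06 on day 14 resected arrays. The mock arrays spanned the values of both resected groups. The day 3 difference of 0.12 ± 0.30 turned to -0.21 without mock replicate 3 and to -0.13 after subtraction of the negative control medians.

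Pdgfrb, the receptor for PDGF-B and PDGF-D, measured 6.24, 6.55 and 6.90 on mock arrays, 6.97, 7.45 and 7.36 on day 3 resected arrays and 6.07, 6.88 and 6.10 on day 14 resected arrays. The day 3 resected arrays were again the highest 3, with a small gap to mock replicate 3. On day 3 it differed from mock by 0.70 ± 0.27 (95% interval 0.11 to 1.29, adjusted p = 0.182 by limma), and between 0.54 and 0.87 when any 1 array was left out. Markers of pericytes and mural cells, which also carry this receptor, had 0 of 12 past the threshold as higher and 1 as lower, beside 6.27% of all transcript clusters that passed. The one that fell was the smooth muscle myosin Myh11 (-1.07 ± 0.26, adjusted p = 0.0294 by limma). Of the 12, Cspg4, Notch3, Des and Higd1b were under the negative control median on all arrays, where a rise could hardly be seen.

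Thy1, a lipid-anchored surface protein of fibroblasts that T cells and neurons also carry, had values of 6.98, 6.05 and 5.18 on mock arrays, 7.60, 8.57 and 9.96 on day 3 resected arrays and 6.63, 6.003 and 6.63 on day 14 resected arrays. Mock and day 3 resected arrays each spread widely but did not overlap. Thy1 rose by 2.64 ± 0.53 (mock 6.07 ± 0.90, day 3 resected 8.71 ± 1.19, SD, n = 3; adjusted p = 0.00866 by limma). This was the largest difference of the 9 genes in either direction, and it was 2.02 to 3.20 when any 1 array was left out, with the threshold passed each time.

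Lrrc15 is a leucine-rich repeat membrane protein known from activated, matrix-producing fibroblasts. It measured 4.79, 4.39 and 4.04 on mock arrays, 5.76, 6.02 and 6.69 on day 3 resected arrays and 4.79, 4.32 and 4.34 on day 14 resected arrays. Only the day 3 resected arrays were all above the median of the negative controls of their array, and 2 of the other 6 were. Lrrc15 rose by 1.75 ± 0.28 (mock 4.41 ± 0.38, day 3 resected 6.16 ± 0.48, SD, n = 3; adjusted p = 0.00219 by limma).

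Fap encodes fibroblast activation protein, a serine protease on the surface of activated fibroblasts. Its values were 8.28, 8.19 and 7.35 on mock arrays, 8.38, 8.68 and 8.67 on day 3 resected arrays and 8.24, 8.33 and 7.99 on day 14 resected arrays. In the mock group replicate 3 was the low array, and the other mock arrays lay just under the lowest day 3 resected array. The difference of 0.64 ± 0.26 (95% interval 0.07 to 1.20) did not pass (adjusted p = 0.205 by limma), and it was 0.34 without mock replicate 3.

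Prrx1, a homeobox transcription factor of limb and craniofacial mesenchyme, measured 6.41, 6.03 and 5.59 on mock arrays, 7.41, 8.42 and 8.58 on day 3 resected arrays and 6.51, 6.68 and 6.57 on day 14 resected arrays. Every resected array of either day was above every mock array. Prrx1 rose by 2.12 ± 0.31 on day 3 (mock 6.01 ± 0.41, day 3 resected 8.13 ± 0.64, SD, n = 3; adjusted p = 0.00101 by limma), with 1.24% of all transcript clusters at a smaller p. Twist1, a helix-loop-helix factor that pairs with the E proteins Tcf3 and Tcf12, had values of 3.10, 3.22 and 3.01 on mock arrays, 3.41, 3.06 and 2.61 on day 3 resected arrays and 3.31, 2.98 and 3.30 on day 14 resected arrays. The groups overlapped, and the day 3 difference of -0.08 ± 0.23 turned to 0.01 after quantile normalisation and to 0.13 without day 3 resected replicate 3.

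**Figure D2:**
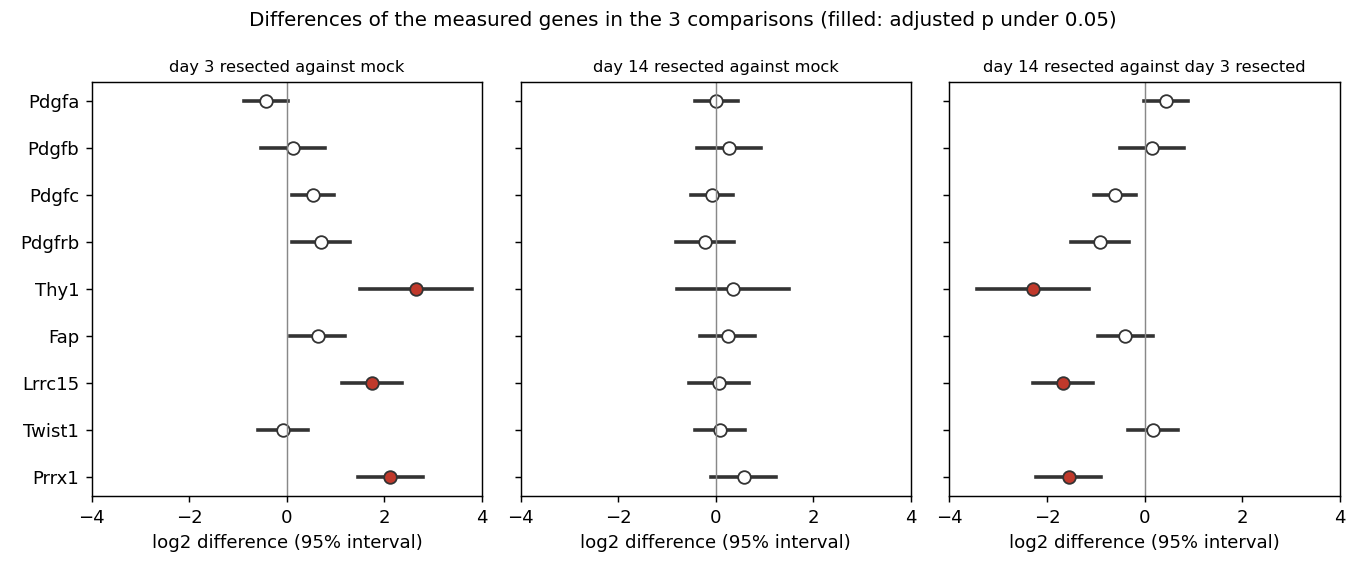
Log2 differences of the 9 measured genes with their 95% intervals from limma in the 3 comparisons; filled points passed an adjusted p of 0.05. Thy1, Lrrc15 and Prrx1 are filled in the first and last panels, and the middle panel has no filled point.

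More cells of a type and more RNA per cell cannot be told apart in these whole-gland samples, and markers of other cells moved on day 3. The counts below stand beside 6.27% of all transcript clusters that passed on day 3 (4.92% higher, 1.36% lower). At an unadjusted p under 0.05 (limma) there were 18.6% of all transcript clusters. Of 9 macrophage markers, 9 rose, with a summed level of 12.03 to 13.29 on mock arrays, 16.62 to 16.77 on day 3 resected arrays and 13.45 to 13.70 on day 14 resected arrays (log2 of the sum of unlogged values). Their part in the differences of the ligands and surface markers was not tested. T cell markers, relevant to Thy1, had 1 of 7 that passed as higher, Cd3e (1.04 ± 0.25, adjusted p = 0.0272 by limma). At an unadjusted p under 0.05 (limma) there were 2 of the 7. The other was Cd4 (0.88 ± 0.28, adjusted p = 0.0921 by limma), above the negative control median on 9 of 9 arrays. Summed levels of the T cell markers were 7.32 to 7.35 on mock, 7.54 to 7.97 on day 3 and 7.45 to 7.63 on day 14 arrays. Cd3e, Cd3g and Cd8a lay under the negative control median on all 9 arrays. Nerve and Schwann cell markers had 0 of 6 past the threshold and 2 at an unadjusted p under 0.05 (limma), with S100b, Nefl, Uchl1 and Prph under that median throughout and summed levels of 10.38 to 12.05, 10.13 to 10.83 and 11.02 to 11.48 in the mock, day 3 and day 14 groups. That sum was almost wholly Sox10 (9.87 to 11.95), which salivary epithelium also expresses, so it does not measure nerve content. Endothelial markers had 0 of 9 past the threshold and 2 at an unadjusted p under 0.05, with summed levels of 9.43 to 9.66, 9.96 to 10.23 and 9.63 to 9.85, and Cldn5 under that median throughout. Emcn read highest of the endothelial markers on every array (8.58 to 9.29). Pericyte and mural markers summed to 10.35 to 10.73, 9.71 to 10.19 and 9.77 to 10.12, and Myh11, which fell, read highest of them on every array. The median day 3 difference of that list was 0.08, so the lower sum does not describe the list as a whole. Platelet markers had 1 of 7 that rose, Pf4 (3.87 ± 0.51, adjusted p = 5.1e-04 by limma), which macrophages also express, while Gp5, Gp6 and Treml1 lay under the negative control median. At an unadjusted p under 0.05 (limma) there were 2 of these 7. The other was Ppbp (1.81 ± 0.61, adjusted p = 0.112 by limma), at 3.71, 4.51 and 6.80 on day 3 arrays and above the negative control median on 1 of 9 arrays. The summed level of the platelet markers was 7.87 to 8.84 on mock, 10.49 to 12.69 on day 3 and 8.12 to 8.41 on day 14 arrays. On the day 3 arrays that sum was mostly Pf4 (10.34 to 12.64).

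Of 11 measured acinar and duct markers of the gland, all except Krt19 were above the negative control median on 9 of 9 arrays. Their summed level, 20.79 to 20.93 on mock, 19.75 to 20.41 on day 3 and 20.64 to 21.02 on day 14 arrays, was carried by Klk1b22, Slc12a2 and Smgc, which read mostly above 16. Klk1b22 read 19.93, the highest value of any array, on all mock arrays, so the sum cannot show a higher level there. On day 3, 4 of the 11 fell and 1, Krt19, passed as higher, from a mock group with 0 of 3 arrays above the negative control median. Of all transcript clusters, 1.36% passed as lower and 4.92% as higher. Adipocyte and skeletal muscle markers had 0 of 6 each past the threshold and 0 at an unadjusted p under 0.05 (limma), and lymph node markers had 1 of 5 that rose.

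The wider PDGF pathway was given by proteins that process or bind the ligands and by those that carry the receptor signal. Of 9 measured processing and binding genes, 3 rose and 1 fell on day 3, with a median of 0.79, beside 6.27% of all transcript clusters that passed. The one that fell was Pdgfd, whose product PDGF-D is a ligand of PDGFR-beta activated by cleavage. It measured 10.72, 10.49 and 10.33 on mock arrays, 9.42, 9.39 and 9.26 on day 3 resected arrays and 9.82, 9.79 and 9.84 on day 14 resected arrays. The 3 groups did not overlap, with day 14 between the others. Pdgfd fell by 1.16 ± 0.20 on the log2 scale (adjusted p = 0.00299 by limma), and between 1.06 and 1.25 when any 1 array was left out, each time past the threshold.

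Sparc, a collagen-binding matrix protein that also binds PDGF, rose most among the processing and binding genes, by 3.51 ± 0.31 (adjusted p = 3.0e-05 by limma). Its day 3 resected values of 16.62 to 17.91 lay in the range above 16. Lrp1, an endocytic receptor that associates with PDGFR-beta, rose by 1.44 ± 0.32 (adjusted p = 0.0144 by limma) and Plat, the tissue plasminogen activator that can activate PDGF-C, by 1.26 ± 0.31 (adjusted p = 0.0297 by limma). The calls of these last 2 were lost in several fits with 1 array less. Lrp1 was at 1.39, 1.37 and 1.06 without mock replicate 1, mock replicate 3 or day 3 resected replicate 3 (adjusted p of 0.0521 to 0.0531 by limma). Plat was at 0.92, 1.25 and 1.12 without mock replicate 3, day 3 resected replicate 2 or day 3 resected replicate 3 (adjusted p of 0.0845 to 0.131 by limma). Not past the threshold were Plau, the urokinase that can activate PDGF-D (-0.66 ± 0.29), Furin, which matures PDGF-A and PDGF-B (-0.10 ± 0.23), and the protease Htra1 (0.92 ± 0.32).

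Of 20 measured signal transduction genes, 2 rose on day 3, 0 fell, and the median was 0.05. That is 10% of the list, beside 6.27% of all transcript clusters that passed. The 2 were Ptpn1 (1.21 ± 0.32, adjusted p = 0.0403 by limma) and Ptpn2 (1.10 ± 0.24, adjusted p = 0.0132 by limma), phosphatases known to remove phosphate from PDGF receptors. Adaptors and kinases such as Grb2 (0.60 ± 0.23), Pik3ca (-0.56 ± 0.22) and Plcg1 (-0.07 ± 0.27) did not pass. Without mock replicate 2 or day 3 resected replicate 3 neither phosphatase passed, with Ptpn1 at 0.97 and 0.93 and Ptpn2 at 1.01 and 0.89. Ptpn1 alone also failed without mock replicate 1 (1.24), day 3 resected replicate 1 (1.30) or day 14 resected replicate 1 (1.21). Immediate early and feedback genes that growth factors induce had 0 of 15 past the threshold on day 3 and 4 at an unadjusted p under 0.05 (limma, beside 18.6% of all transcript clusters), with a median of -0.21. Without mock replicate 1 there was 1 of 15. Single arrays spread widely in this list: the phosphatase Dusp1 read 10.42, 15.58 and 8.46 on mock arrays, which leaves a day 3 interval of -3.94 to 3.52.

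Of 21 measured general fibroblast genes, 15 rose on day 3, 0 fell, and the median was 1.85, beside 6.27% of all transcript clusters that passed. The largest were the collagen chains Col1a1 (5.12 ± 0.58), Col3a1 (4.69 ± 0.42) and Col1a2 (4.14 ± 0.42). Col1a2 went from 8.57, 8.80 and 8.71 on mock arrays to 11.61, 13.06 and 13.83 on day 3 resected arrays and was at 10.00, 9.45 and 9.44 on day 14. Those not past the threshold were Dcn (0.66 ± 0.27), Ddr2 (0.62 ± 0.32), Fbln2 (0.92 ± 0.34), Col6a3 (1.07 ± 0.40), Dpp4 (-0.46 ± 0.22) and Gsn (-0.64 ± 0.34). Dcn read above 16 on all arrays.

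Among 18 measured genes of activated fibroblasts, 6 rose and 0 fell (median 0.36), beside 6.27% of all transcript clusters that passed. The genes that rose were led by the matrix glycoproteins Tnc (5.57 ± 0.78) and Fn1 (4.86 ± 0.57) and by Lox, which crosslinks collagen. Tnc was above the negative control median on 1 of 3 mock arrays, and against the higher of that median and its own value the difference was 5.0025. Lox measured 4.85, 4.50 and 5.14 in the mock group and 8.69, 9.10 and 10.19 at day 3 after resection, a rise of 4.49 ± 0.35 (adjusted p = 1.2e-05 by limma). The contractile markers of myofibroblasts Acta2 (0.31 ± 0.29) and Tagln (0.00 ± 0.34) did not pass. Both already read high on mock arrays (Acta2 13.99 to 14.81, Tagln 10.2 to 11.53). The cells that gave this RNA cannot be told apart in whole glands, so a change in myofibroblasts alone could be missed. Of the list, Col8a1, Inhba, Itga11 and Comp were under the negative control median on all arrays.

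Of 24 other mesenchymal transcription factors measured, 1 rose on day 3, Osr2 (adjusted p = 0.00502 by limma), beside 6.27% of all transcript clusters that passed. Osr2 read 3.48 to 4.02 on mock arrays, all under the negative control medians, and 4.75 to 5.17 on day 3 resected arrays, all above them. The measured difference was 1.24 ± 0.23, and against the negative control medians of the mock arrays it was 0.48, so its size is not settled. The median of the 24 was 0.10, and 6, among them Twist2, were under the negative control median on all arrays. Prrx2, the paralogue of Prrx1, differed by 0.70 ± 0.31 (adjusted p = 0.258 by limma), and the Twist1 partners Tcf3 and Tcf12 by 0.75 ± 0.30 and -0.30 ± 0.24.

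**Figure D3:**
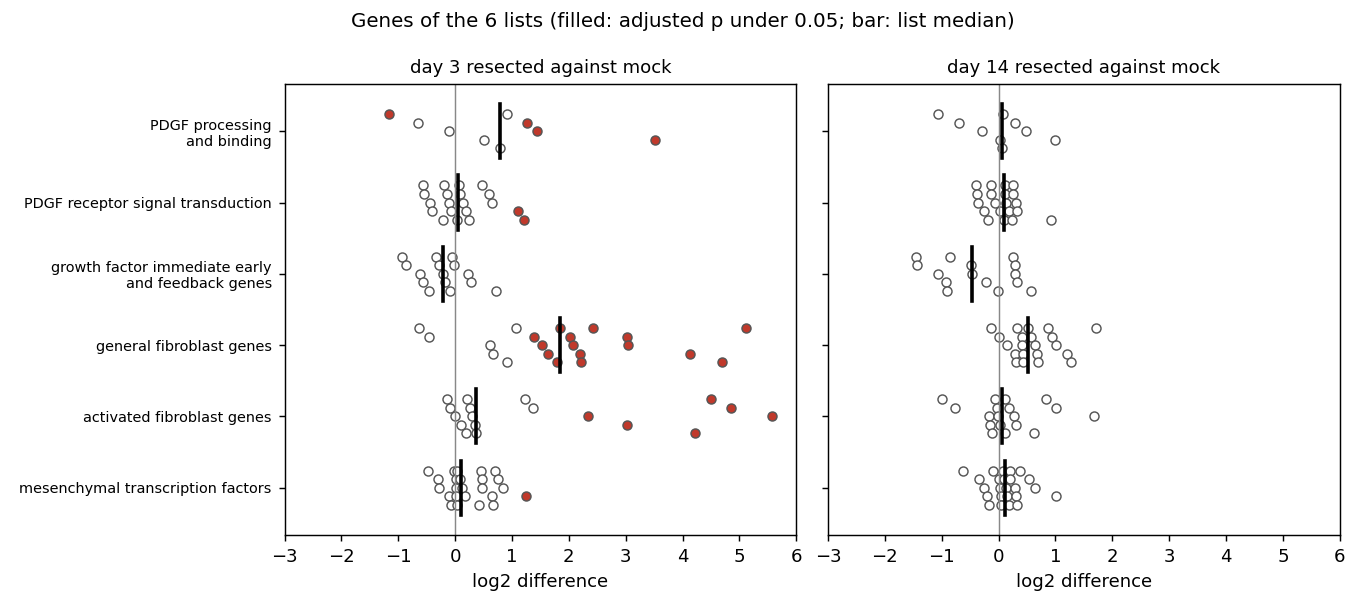
Log2 differences from mock of every measured gene of 6 lists, on day 3 (left) and day 14 (right) after resection; filled points passed an adjusted p of 0.05 and the bar is the list median. On day 3 the general fibroblast list has 15 filled points of 21, the signal transduction list 2 of 20 and the immediate early list 0 of 15; on day 14 no point is filled.

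Day 14 resected against mock asks what still differs at the later time. Of the 9 listed genes, 0 passed in limma and 0 had an unadjusted p under 0.05, beside 0.153% of all transcript clusters that passed (0.0991% higher, 0.0540% lower) and 8.18% at that unadjusted p. The groups did not overlap for 1 of the 9, Prrx1, beside 13.0% of all transcript clusters (6.03% with the resected group higher). Prrx1 differed by 0.57 ± 0.31 (95% interval -0.10 to 1.24, adjusted p = 0.667 by limma), with 3 of 3 day 14 arrays above all mock arrays.

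The intervals at day 14 still allow sizeable differences for some genes. For Thy1 the difference was 0.35 ± 0.53 (95% interval -0.79 to 1.50), for Lrrc15 0.08 ± 0.28 (-0.54 to 0.69) and for Fap 0.24 ± 0.26 (-0.32 to 0.81). Pdgfrb differed by -0.22 ± 0.27 (-0.81 to 0.37), Pdgfa by 0.01 ± 0.21 (-0.44 to 0.45), Pdgfc by -0.07 ± 0.20 (-0.51 to 0.36), Pdgfb by 0.27 ± 0.30 (-0.38 to 0.93) and Twist1 by 0.09 ± 0.23 (-0.42 to 0.60). Several of these small differences changed sign with 1 array or with the scaling. Without mock replicate 3, Thy1 was at -0.09, Fap at -0.05, Lrrc15 at -0.11, Pdgfa at -0.06 and Pdgfb at -0.05, and after subtraction of the negative control medians Pdgfa was at -0.08, Lrrc15 at -0.02 and Twist1 at 0.00.

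Each of the 6 gene lists had 0 members past the threshold at day 14 in limma. At an unadjusted p under 0.05, which 8.18% of all transcript clusters reached, there were 3 of 9 processing and binding genes, 1 of 20 signal transduction genes, 4 of 15 immediate early genes, 4 of 21 general fibroblast genes, 3 of 18 activated fibroblast genes and 1 of 24 transcription factors. Pdgfd differed from mock by -0.70 ± 0.20 (adjusted p = 0.298 by limma), Sparc by 0.99 ± 0.31 and Pik3r1, the regulatory subunit of PI3 kinase, by 0.91 ± 0.24. Plau differed by -1.07 ± 0.29 (adjusted p = 0.275 by limma). General fibroblast genes had a median of 0.52 (-0.14 to 1.71), and the groups did not overlap for 7 of 21, beside 13.0% of all transcript clusters. Activated fibroblast genes had a median of 0.07 (-0.99 to 1.68), with no overlap for 4 of 18. At the top of the general fibroblast range was Col3a1, at 11.73 to 13.17 on day 14 arrays and 10.49 to 10.86 on mock arrays.

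Day 14 against day 3 within resected glands also tests whether the differences from mock changed between the days, because the mock arrays cancel. The 3 genes that rose on day 3 were lower on day 14. Of the 9 genes, 3 passed, beside 6.28% of all transcript clusters that passed, 4.88% as lower and 1.40% as higher. At an unadjusted p under 0.05 there were 5 of the 9 in limma, beside 18.9% of all transcript clusters. The groups did not overlap for 7 of the 9, beside 25.4% of all transcript clusters (12.9% with day 14 higher). This comparison shares the day 3 resected arrays with the first one, so its calls are not independent of those.

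Lrrc15 fell by 1.67 ± 0.28 (adjusted p = 0.00263 by limma), Prrx1 by 1.55 ± 0.31 (adjusted p = 0.00768 by limma) and Thy1 by 2.29 ± 0.53 (adjusted p = 0.0204 by limma). The calls of Lrrc15 and Prrx1 were kept when any 1 array was left out. That of Thy1 was lost without day 3 resected replicate 2 (-2.36, adjusted p = 0.0564 by limma), day 3 resected replicate 3 (-1.66, 0.0844), or day 14 resected replicate 1 (-2.39, 0.0586), replicate 2 (-2.08, 0.0877) or replicate 3 (-2.39, 0.0548).

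Pdgfrb was close to the threshold, at -0.91 ± 0.27 (95% interval -1.50 to -0.32, adjusted p = 0.071 by limma). It passed without day 14 resected replicate 2, the high array of its group (-1.18, adjusted p = 0.0259), and with array weights (-0.96, adjusted p = 0.0397). Pdgfc differed by -0.61 ± 0.20 (adjusted p = 0.105 by limma) and Pdgfa by 0.44 ± 0.21 (adjusted p = 0.272 by limma), in both cases with no overlap between the days. Fap (-0.39 ± 0.26), Pdgfb (0.15 ± 0.30) and Twist1 (0.17 ± 0.23) had adjusted p of 0.470 to 0.842 by limma, and Twist1 was at -0.04 without day 3 resected replicate 3.

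**Figure D4:**
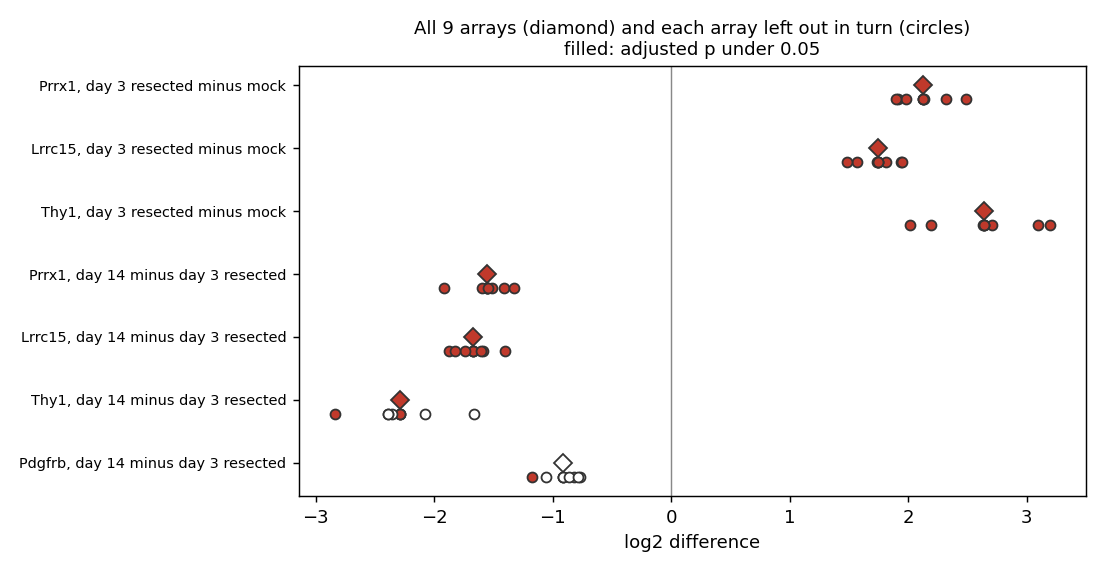
Log2 differences of the genes that passed, and of Pdgfrb, with all 9 arrays (diamonds) and with each array left out in turn (circles); filled symbols have an adjusted p under 0.05. Thy1 between the days loses the threshold in 5 of 9 such fits, and Prrx1 and Lrrc15 keep it in all 9.

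In the lists, the same comparison had 9 of 21 general fibroblast genes and 6 of 18 activated fibroblast genes lower on day 14, with 0 higher in either. Of all transcript clusters, 6.28% passed, 4.88% as lower. Col1a1 fell by 3.92 ± 0.58, Col1a2 by 3.20 ± 0.42 and Col3a1 by 2.98 ± 0.42 on the log2 scale. Tnc fell by 4.73 ± 0.78, Lox by 4.62 ± 0.35 and Cthrc1, a secreted protein of activated fibroblasts, by 3.95 ± 0.46. Cthrc1 was above the negative control median on 0 of 3 day 14 arrays and Lox on 2 of 3, and against the higher of that median and the gene's own value the sizes were 3.05 and 4.56. Among transcription factors Osr2 fell by 1.06 ± 0.23, to day 14 values that were all under the negative control medians (a difference of 0.39 in size against those medians), a call lost without day 3 resected replicate 2 (-0.94, adjusted p = 0.0695 by limma) or day 14 resected replicate 1 (-0.94, 0.0638). In the pathway, Sparc fell by 2.51 ± 0.31, Ptpn2 by 1.48 ± 0.24 and Lrp1 by 1.38 ± 0.32. The call of Lrp1 was lost without day 3 resected replicate 2 or 3 or any 1 day 14 array (-1.40 to -0.99, adjusted p of 0.0562 to 0.0709 by limma). Pdgfd did not pass between the days (0.46 ± 0.20, adjusted p = 0.220 by limma). Immediate early genes had 0 of 15 past the threshold and 4 at an unadjusted p under 0.05 (limma, beside 18.9% of all transcript clusters). Without day 14 resected replicate 3, 1 of 15 was past the threshold.

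Likeness of pattern was measured as the root mean square difference between centred log2 values over the 9 arrays, among 18468 other named genes, and is a description of these arrays. The profile of Fap was closest to that of Dcn, the fibroblast proteoglycan decorin, at 0.09, followed by Dpy30 (0.09), Pls3 (0.11) and Hsd17b11 (0.12). Dcn read 17.17 on mock replicate 3, against 18.20 and 18.12 on the other mock arrays, the same low array as for Fap. All values of Dcn (17.17 to 18.60) lay in the range above 16, where differences are not calibrated. Nearest to Lrrc15 were Gpr65 (0.18), Kif22 (0.20), Ncf4 (0.20) and the cytokine Il33 (0.21), and nearest to Pdgfrb were Igsf8 (0.18), Sipa1l1 (0.20), S100a14 (0.20) and Pbdc1 (0.21).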

How the data were processed

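RNA from 9 glands, 3 per group, was hybridised to Clariom S arrays. Per the labels and the series' design text, the authors made the deposited log2 values with Transcriptome Analysis Console (TAC) 4.0 and RMA, which subtracts background, brings arrays to a common distribution and summarises probes. A genome build was not given in the sources used here. Of 28846 rows, 6640 controls were left out and 22206 transcript clusters tested. Symbols came from the platform table through Entrez identifiers; 19572 clusters had 1 symbol and 2634 none. Each of the 9 measured genes had 1 cluster.

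All 9 arrays entered 1 limma 3.58.1 model (R 4.3.3, a mean per group, 6 residual and 6.63 prior degrees of freedom), checked on simulated data. P-values were two-sided and adjusted over all clusters, and the number of arrays limits the precision. An exact permutation test of 3 against 3 arrays cannot go below p = 0.1, so it was not used for calls. Members and lists were chosen with earlier results of these data known. Of 204 genes in 16 lists, 185 were measured and the rest not analysed here; from each of 6 pathway lists up to 3 genes per direction past the threshold, largest first, were named, and genes named beyond these were chosen after their values were seen. Likeness was computed for Pdgfrb, Fap and Lrrc15. Alternatives were other scalings, filters, variance models, a replicate block and leaving out each array; those for the lists were added after seeing the data.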

Additional observations from a re-analysis of the deposited data

Results flagged for a closer look

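For 3 of the 9 genes the difference from mock was not the same on the 2 days, by the test of day 14 against day 3 resected arrays in limma. Of all transcript clusters, 6.28% passed this test. The change between the days was -2.29 for Thy1 (adjusted p = 0.0204), -1.67 for Lrrc15 (adjusted p = 0.00263) and -1.55 for Prrx1 (adjusted p = 0.00768). For each, 3 of 3 day 14 arrays lay below all day 3 resected arrays. The groups did not overlap, in either direction, for 25.4% of all transcript clusters (12.9% with day 14 higher). The call of Thy1 was lost in 5 of 9 fits with 1 array left out, and those of Lrrc15 and Prrx1 were kept in all 9. Groups of 3 arrays were not tested for outlying arrays.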

How the results depend on the processing

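The calls of Thy1, Lrrc15 and Prrx1 on day 3 were kept under all 19 alternatives, at 2.02 to 3.20, 1.48 to 1.95 and 1.88 to 2.49. The number of listed genes that passed was 3 on day 3 and 0 at day 14 in all 19, and 2 to 4 between the days. The balance of directions over all clusters changed with the scaling: on day 3, 1092 were higher and 301 lower as deposited, 973 and 452 after quantile normalisation, 1013 and 480 after median centring, and 862 and 1352 (2214 in all) after subtraction of the negative control medians. That subtraction moved the median cluster from -0.06 to -0.31 and median centring moved it to -0.14, a shift that applies to every cluster alike. Between the days, 310 were higher and 1084 lower as deposited, 701 and 901 after the subtraction. At day 14 the count of 34 clusters (22 higher, 12 lower) became 56 with a variance trend and 22 without clusters above 16, and 22 higher and 21 lower after the subtraction. Without 1 array the counts ran from 850 (day 3 resected replicate 3) to 1307 on day 3, from 20 (day 14 resected replicate 2) over 22 (day 14 resected replicate 3) to 58 (mock replicate 3) at day 14, and from 874 (day 3 resected replicate 3) to 1429 between the days.

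Differences near 0 turned sign. On day 3 these were Twist1, at 0.0115 after quantile normalisation and from -0.274 to 0.1257 over the fits without 1 array, and Pdgfb, at -0.129 after the subtraction and from -0.2052 to 0.5114 without 1 array. At day 14, Pdgfa was at -0.0089 with median centring, -0.0131 with array weights and -0.0837 after the subtraction, which also put Lrrc15 at -0.0173 and Twist1 at -0.0046. Without 1 array the day 14 differences ran from -0.0663 to 0.1546 for Pdgfa, -0.0503 to 0.6663 for Pdgfb, -0.1939 to 0.0111 for Pdgfc, -0.0894 to 0.8089 for Thy1, -0.0511 to 0.4154 for Fap and -0.1066 to 0.2682 for Lrrc15. Between the days Twist1 ran from -0.0374 to 0.3623. The cause of these shifts was not tested. Choosing another cluster per gene was not run, since each listed gene had 1, and Twist1 has no value with the dimmest 30% of clusters left out.

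Arrays that share a replicate number correlated at -0.09 to 0.05 in their deviations from the group means, and 2 of 9 arrays correlated best with their own number. These values show no shared effect by number, but cannot tell whether same-numbered arrays were handled together. With the replicate block 1283, 26 and 1297 clusters passed in the 3 comparisons, and 3, 0 and 3 of the listed genes. Plat lost its day 3 call after quantile normalisation (adjusted p = 0.0554 by limma) and after the subtraction (0.0558), and Ptpn1 after median centring (0.0525), after the subtraction (0.0661) and with only the groups compared (0.0613). Low values limit Twist1 and Pdgfb, whose arrays lay mostly under the negative control median.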

Other observations

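Mock replicate 3 was the lowest mock array for Pdgfb, Thy1, Fap, Lrrc15, Twist1 and Prrx1 and the highest for Pdgfc and Pdgfrb. Day 3 resected replicate 3 was the highest of its group for Thy1 (9.96), Lrrc15 (6.69) and Prrx1 (8.58), and likewise for Col1a2 (13.83), Lox (10.19), Sparc (17.91) and Pf4 (12.64). It was also the lowest of its group for Pdgfd (9.26) and Twist1 (2.61).

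Myh11, the smooth muscle myosin that fell on day 3, read 9.94, 9.50 and 9.45 on mock arrays, 8.24, 8.88 and 8.57 on day 3 resected arrays and 8.14, 8.67 and 8.94 on day 14 resected arrays. The day 14 arrays also lay below all mock arrays, although that difference did not pass (-1.04, limma). Rgs5, a pericyte marker, was at 7.87 to 8.63 on mock, 7.60 to 8.11 on day 3 and 7.81 to 8.40 on day 14 arrays.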
